A study of Mus musculus with 4 samples.

Results

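The genes described here are 9 of the TGF-beta pathway, chosen by name: the ligand genes Tgfb1, Tgfb2 and Tgfb3, the latency gene Ltbp3, and the response and feedback genes Tgfbi, Pmepa1, Skil, Ski and Tgif1. All 9 were found among the 24015 genes counted in day 7 mouse embryoid bodies, and all 9 were among the 14259 genes with enough counts to be tested. Embryoid bodies are floating clusters of differentiating embryonic stem cells. Per the labels, the stem cell lines came from outbred embryos with both copies of Trim33 floxed and the UbcCreERT2 transgene, a tamoxifen-dependent Cre recombinase under a ubiquitin promoter, and were used at passages given as 8 to 10. The Trim33-deficient group (2 libraries) was made with 4-hydroxytamoxifen on day 4 and collected on day 7. The Control group (2 libraries, day 7) has the genotype label wild type, and the labels do not settle whether it carried the floxed allele and Cre or received tamoxifen. The transgene is not tied to 1 cell type. The labels speak of independent pairs, but nothing in them states that the 2 libraries of a group are of different lines. The tests thus capture only how far these libraries vary, and what part of this is technical cannot be told.

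TGF-beta ligands are secreted as latent dimers, held by their own propeptides and by latent TGF-beta binding proteins in the matrix, and act on a type I and type II receptor pair once released. The receptors phosphorylate SMAD2 and SMAD3, which join SMAD4 and enter the nucleus. The SKI and SKIL (SnoN) proteins and TGIF1 are nuclear corepressors of these SMADs, and PMEPA1 is a membrane protein that keeps SMADs from the receptor. Skil and Pmepa1 are themselves induced by the signal, which makes them negative feedback genes. Trim33, also called TIF1-gamma, encodes a ubiquitin ligase that binds phosphorylated SMAD2 and SMAD3 and has been described as a regulator of SMAD4.

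Levels are given in CPM, counts scaled to the total in genes of each library after TMM normalisation. The libraries held 10422738 to 13808837 counts in genes, so every value of the 9 genes rests on at least 171 counts. Trim33 itself was at 93.0 and 109 CPM in Control and at 43.9 and 42.3 CPM in Trim33-deficient libraries, so 42.6% was left (edgeR adjusted p = 0.219, DESeq2 adjusted p = 7.06e-06). Transcripts that lack the floxed exons can still be counted. Control replicate 1 stood apart from the other libraries, with Pearson correlations across genes of 0.932 to 0.952 against 0.967 to 0.978 among the others. These coefficients are across genes, which are no replicates, and serve as a description.

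Of the 9 genes, 8 had a higher mean in Trim33-deficient bodies and 1, Tgif1, had a lower one, where 49.8% of all genes tested had a log2 fold change above 0. The median log2 fold change of the 9 was 0.40, against −0.0014 over all genes tested. None was called. The edgeR quasi-likelihood test with Benjamini-Hochberg adjustment over all genes called 0 of 9 and 0.014% of all genes. At an unadjusted p under 0.05 it had 1 of 9 higher, Pmepa1, against 3.06% of all genes, and 0 of 9 lower, against 4.78%. DESeq2 also called 0 of 9, against 0.829% of all genes, and at an unadjusted p under 0.05 it had 2 of 9 higher, Tgfb2 and Pmepa1, against 2.18%. The groups did not overlap in 7 of 9: Trim33-deficient bodies were higher in 6, against 19.3% of all genes, and lower in 1, Tgif1, against 21.4%. The authors' deposited table lists only 84 genes, where 24015 were counted. Trim33 is among the 84 (authors' DESeq adjusted p = 0.00109), and 0 of the 9 members are. The members were picked by name with earlier results of these data known, and no test of the list as a whole was made.

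**Figure D1:**
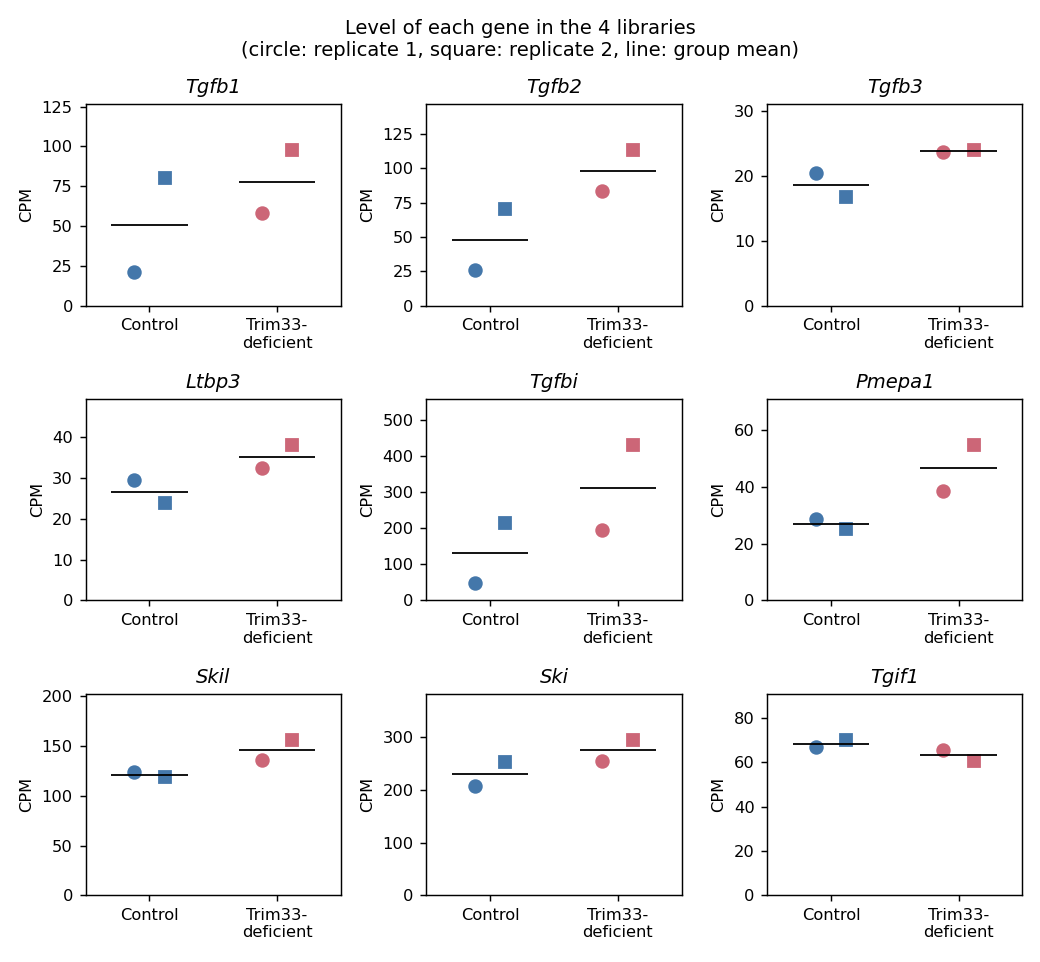
Level of each of the 9 genes in CPM (y axis, from 0) in the 2 Control (blue) and 2 Trim33-deficient (red) libraries, with circles for replicate 1, squares for replicate 2 and a line at the group mean. The Control libraries lie far apart for Tgfb1, Tgfb2 and Tgfbi (48.4 and 216 CPM for Tgfbi) and close together for Skil (124 and 119 CPM).

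Of the ligand genes, Tgfb1 and Tgfb2 differed widely between the Control libraries and Tgfb3 did not. Tgfb1, the most widely expressed ligand of the family, was counted 276 and 823 times in Control replicates 1 and 2, against 806 and 1143 times in Trim33-deficient replicates 1 and 2, or 21.3, 80.4, 58.1 and 97.6 CPM. Trim33-deficient replicate 1 lay below Control replicate 2, so the groups overlapped. Control replicate 2 was 3.77-fold above Control replicate 1, a gap wider than that of 95.9% of genes tested. The means were 50.9 ± 41.8 and 77.9 ± 27.9 CPM (SD, n = 2 each), 1.54-fold higher in Trim33-deficient bodies. The log2 fold change of 0.62 had a standard error of 0.66 (edgeR adjusted p = 0.806) and is within the spread between replicates. It came to 1.87 when Control replicate 2 was left out and to −0.05 when Control replicate 1 was, so its direction rested on Control replicate 1.

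Tgfb2, a ligand required for heart and craniofacial development, was counted 339 and 717 times in the Control libraries, against 1157 and 1325 times in the Trim33-deficient ones. These are 26.2 and 70.0 CPM against 83.4 and 113 CPM. Both Trim33-deficient libraries lay above both Control libraries, and Control replicate 1 was again the lowest. The means were 48.1 ± 31.0 and 98.3 ± 21.0 CPM (SD, n = 2 each), 2.05-fold higher. The log2 fold change of 1.03 (SE 0.49) exceeded that of 97.8% of genes tested but did not pass (edgeR adjusted p = 0.664, DESeq2 adjusted p = 0.644). Leaving out each library in turn kept it between 0.48, without Control replicate 1, and 1.91, without Control replicate 2.

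Tgfb3, the ligand known for its part in palate closure, was the lowest of the 3 ligand genes by counts, with 265 and 171 in the Control bodies against 330 and 281 in the Trim33-deficient ones. Its levels were 20.5 and 16.7 CPM against 23.8 and 24.0 CPM. The groups did not overlap, and the 2 Trim33-deficient libraries nearly coincided. The log2 difference was 0.36 (SE 0.19, edgeR adjusted p = 0.678), 1.28-fold higher. Unlike those of the other 2 ligand genes, its Control libraries were ordered with replicate 1 above replicate 2.

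Levels of different genes are comparable only per transcript length, taken here as the longest coding transcript of each gene in the GRCm38 annotation (2175 bases for Tgfb1, 5116 for Tgfb2, 3383 for Tgfb3). Summed over the 3 ligand genes, Control replicates 1 and 2 held 21.0 and 55.6 CPM per kb and Trim33-deficient replicates 1 and 2 held 50.1 and 74.1 CPM per kb. The Control total thus spanned a wider range than the Trim33-deficient total, and the groups overlapped. Tgfb1 made up 46.7% and 66.5% of the ligand total in Control, against 53.4% and 60.6% with Trim33 deficiency. Tgfb2 made up 24.4% and 24.6% in Control, against 32.6% and 29.9% with Trim33 deficiency, a share that was nearly equal in both Control libraries and larger in both Trim33-deficient ones. Tgfb3 made up 28.8% and 8.88% in Control, against 14.0% and 9.57% with Trim33 deficiency. Tgfb1 was the largest share in every library, and the order of Tgfb2 and Tgfb3 was turned in Control replicate 1 alone.

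**Figure D2:**
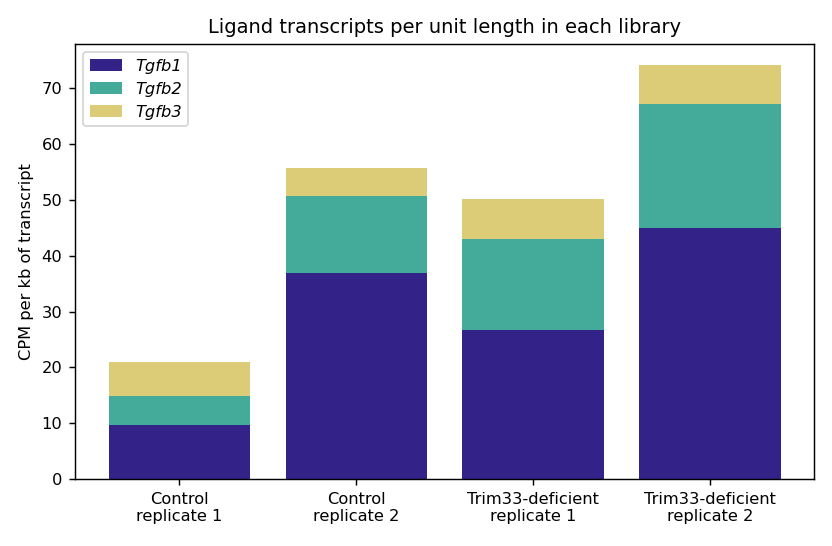
Ligand transcripts in CPM per kb of transcript (y axis, from 0) in each of the 4 libraries, stacked by gene. The bars reach 21.0, 55.6, 50.1 and 74.1 CPM per kb from left to right, and Tgfb1 is the largest segment in each.

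Ltbp3, whose product binds the latent ligand, was counted 380 and 244 times in the Control libraries, against 449 and 444 times in the Trim33-deficient ones. Its levels were 29.4 and 23.8 CPM against 32.4 and 37.9 CPM. The groups did not overlap, and the mean was 1.32-fold higher in Trim33-deficient bodies (log2 fold change 0.40, SE 0.18, edgeR adjusted p = 0.664). No source used here gives the strand setting of the counting, so reads from stretches that genes on opposite strands share cannot be told apart, which limits the counts of Ltbp3.

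Tgfbi, which encodes a secreted matrix protein named for its induction by TGF-beta, had the largest log2 fold change of the 9 and the largest spread. It was counted 626 and 2211 times in the Control libraries, against 2700 and 5036 times in the Trim33-deficient ones, or 48.4 and 216 CPM against 195 and 430 CPM. Trim33-deficient replicate 1 lay below Control replicate 2, so the groups overlapped. The 4.46-fold gap between the Control libraries was wider than that of 97.1% of genes tested. The means were 132 ± 118 and 312 ± 166 CPM (SD, n = 2 each), 2.37-fold higher. The log2 fold change of 1.24 had a standard error of 0.79 (edgeR adjusted p = 0.709), and was 0.53 without Control replicate 1 but 2.70 without Control replicate 2.

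Tgfb1, Tgfb2 and Tgfbi were the 3 genes of the 9 whose level was at least 2.67-fold apart between the Control libraries, all with replicate 1 lower. Their promoter sequences are shown because of this shared gap. The 3 genes did not have the same order of libraries. Trim33-deficient replicate 1 lay below Control replicate 2 for Tgfb1 and Tgfbi but above it for Tgfb2. Whether they share regulation was not tested. The windows are from RefSeq on GRCm38.p6, not on the mm9 build named for the counts, and give the 250 bases before the annotated start, 5′ to 3′ on the strand of the gene. They lie at chr7:25686752-25687001 on the plus strand for Tgfb1, chr1:186705990-186706239 on the minus strand for Tgfb2 and chr13:56609336-56609585 on the plus strand for Tgfbi. Capitals mark 2 motifs known to be bound by SMAD proteins, CAGAC and GGCGC, each on either strand (GTCTG and GCGCC on the strand shown). GGCGC and its reverse complement can overlap each other.
Tgfb1: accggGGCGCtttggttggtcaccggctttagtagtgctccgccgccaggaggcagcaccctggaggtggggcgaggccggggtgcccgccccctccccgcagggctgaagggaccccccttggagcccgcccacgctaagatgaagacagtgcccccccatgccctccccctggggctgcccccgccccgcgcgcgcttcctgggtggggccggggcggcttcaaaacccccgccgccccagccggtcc
Tgfb2: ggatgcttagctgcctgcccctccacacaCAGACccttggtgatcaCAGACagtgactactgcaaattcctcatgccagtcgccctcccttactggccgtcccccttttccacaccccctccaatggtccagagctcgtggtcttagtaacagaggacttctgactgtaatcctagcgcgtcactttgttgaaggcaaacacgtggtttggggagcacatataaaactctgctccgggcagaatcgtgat
Tgfbi: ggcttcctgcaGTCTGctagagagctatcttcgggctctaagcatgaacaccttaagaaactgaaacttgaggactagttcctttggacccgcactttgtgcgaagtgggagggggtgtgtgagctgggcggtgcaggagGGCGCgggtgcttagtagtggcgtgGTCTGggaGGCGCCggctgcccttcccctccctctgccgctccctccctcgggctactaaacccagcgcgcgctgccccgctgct

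The Tgfb1 window held 0 matches of CAGAC and 1 of GGCGC, 245 bases before the start. The Tgfb2 window held 2 matches of CAGAC, which begin 221 and 204 bases before the start, and 0 of GGCGC. The Tgfbi window held 2 matches of CAGAC and 3 of GGCGC, of which 1 CAGAC and 2 GGCGC matches begin between 85 and 76 bases before the start. Among all 32851 windows of this length in the table, 42.2% held CAGAC and 32.0% held GGCGC, so single matches are common. The GC content was 75.2% for Tgfb1, 53.6% for Tgfb2 and 62.4% for Tgfbi, against a mean of 53.2% over all windows. A match is a description of the letters in the window, and binding was not measured. Windows were matched for 6 of the 9 genes (Tgfb1, Tgfb2, Ski, Tgfbi, Tgif1 and Ltbp3), and not for Tgfb3, Skil and Pmepa1.

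Pmepa1 had the smallest p of the 9 genes. It was counted 370 and 259 times in the Control libraries, against 534 and 639 times in the Trim33-deficient ones, or 28.6 and 25.3 CPM against 38.5 and 54.6 CPM. Both Trim33-deficient libraries lay above both Control libraries, which were close to each other. The means were 26.9 ± 2.33 and 46.5 ± 11.4 CPM (SD, n = 2 each), 1.73-fold higher. The log2 fold change was 0.79 (SE 0.22), at rank 440 by p among all genes tested, and did not pass after adjustment (edgeR adjusted p = 0.548, DESeq2 adjusted p = 0.324). Without single libraries it ran from 0.52, without Trim33-deficient replicate 2, to 1.02, without Trim33-deficient replicate 1, so the value did not rest on Control replicate 1.

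The SKI-family genes had small differences. Skil was counted 1605 and 1215 times in the Control libraries, against 1882 and 1827 times in the Trim33-deficient ones, or 124 and 119 CPM against 136 and 156 CPM. The groups did not overlap, and the mean was 1.20-fold higher (log2 fold change 0.27, SE 0.12, edgeR adjusted p = 0.663). Ski was counted 2676 and 2582 times in the Control libraries, against 3536 and 3445 times in the Trim33-deficient ones, or 207 and 252 CPM against 255 and 294 CPM. Control replicate 2 and Trim33-deficient replicate 1 lay within 3 CPM of each other, so the groups only just did not overlap. For Ski the log2 fold change came to 0.26 (SE 0.15, edgeR adjusted p = 0.692). Per kb of transcript, Ski was above Skil in every library, with a Skil to Ski ratio of 0.493 and 0.387 in Control, against 0.438 and 0.436 with Trim33 deficiency. The ratio in Trim33-deficient bodies lay between the 2 Control values.

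Tgif1, a homeodomain corepressor that holds SMAD complexes in check, was the 1 gene with a lower mean. It was counted 867 and 718 times in the Control libraries, against 913 and 711 times in the Trim33-deficient ones, or 67.0 and 70.1 CPM against 65.9 and 60.7 CPM. The highest Trim33-deficient library lay just under the lowest Control library. The log2 fold change of −0.12 (SE 0.12, edgeR adjusted p = 0.802) was a difference no larger than its standard error. It stayed below 0, from −0.17 to −0.05, as each library was left out.

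Per kb of transcript the order of mean levels in Control was Tgfbi, Ski, Tgif1, Tgfb1, Skil, Tgfb2, Pmepa1, Tgfb3 and Ltbp3. Tgfbi, Ski and Tgif1 could not be ordered among themselves beyond their spread, because Tgfbi ran from 17.8 to 79.6 CPM per kb in Control around Ski, at 37.4 and 45.7, and Tgif1, at 39.1 and 40.9. Tgfb1, at 9.80 and 36.9, lay on both sides of Skil, at 18.5 and 17.7. Tgfb2, at 5.12 and 13.7, overlapped Pmepa1, at 6.30 and 5.57, and Pmepa1 overlapped Tgfb3, at 6.05 and 4.94, which overlapped Ltbp3, at 5.66 and 4.59. The Control values of Tgif1 lay above both of Tgfb1, and those of Skil above both of Tgfb2. In Trim33-deficient libraries Tgfbi was the highest of the 9 in both, at 71.8 and 158 CPM per kb, followed by Ski at 46.2 and 53.3.

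The replicate numbers were taken as pairs, since the labels speak of independent pairs. Within both pairs 8 of 9 genes were higher in the Trim33-deficient library, where 30.3% of all genes were, and 1 of 9, Tgif1, was lower, where 29.8% were. Tgfb1 was 2.73-fold higher in the first pair and 1.21-fold in the second, Tgfb2 3.19-fold and 1.62-fold, and Tgfbi 4.03-fold and 1.99-fold. Pmepa1 went the other way round, at 1.35-fold and 2.16-fold, as did Ltbp3 at 1.10-fold and 1.59-fold, Tgfb3 at 1.16-fold and 1.44-fold and Skil at 1.09-fold and 1.31-fold. Ski was 1.23-fold and 1.17-fold higher, and Tgif1 was at 0.983 and 0.866 of its Control level. The genes thus differed in which pair held the larger difference. With the replicate number as a block in edgeR, 0 of 9 genes were called, against 0.014% of all genes. At an unadjusted p under 0.05 the block gave 4 of 9 higher (Tgfb1, Tgfb2, Pmepa1 and Tgfbi), against 5.48% of all genes and 1 of 9 without the block. The blocked log2 fold change of Tgfbi was 1.49 (SE 0.27, edgeR adjusted p = 0.253), that of Tgfb2 1.17 (SE 0.26, adjusted p = 0.292) and that of Tgfb1 0.85 (SE 0.31, adjusted p = 0.418).

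**Figure D3:**
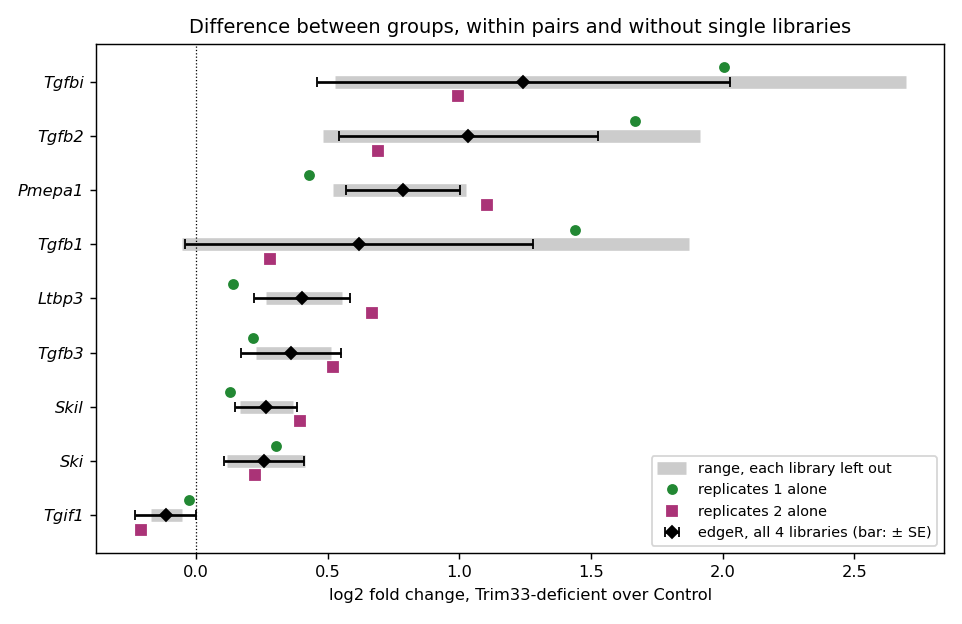
Log2 fold change of each gene, Trim33-deficient over Control (x axis), from edgeR with all 4 libraries (diamond, bar ± SE), from the replicates 1 alone (circle) and the replicates 2 alone (square), with the range over fits that leave out 1 library in grey. Circles lie to the right of squares for Tgfbi, Tgfb2, Tgfb1 and slightly for Ski and Tgif1, and to the left for Pmepa1, Ltbp3, Tgfb3 and Skil.

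Without Control replicate 1 the unadjusted edgeR p was under 0.05 for 2 of 9 genes, Pmepa1 and Ltbp3, both higher, against 3.38% of all genes. Without Control replicate 2 it was for 4 of 9 (Tgfb1, Tgfb2, Pmepa1 and Tgfbi), against 8.53%. The set of genes with a small p therefore depended on which Control library was kept, and Pmepa1 was in both. Without Trim33-deficient replicate 2 it was for 0 of 9, against 0.887%, and without Trim33-deficient replicate 1 for Pmepa1 alone, against 2.03%.

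Markers of mesenchyme and smooth muscle, cells that respond to and make TGF-beta ligands, varied between the libraries. Their sum, though not most of the single markers, had the library order of Tgfb1 and Tgfbi. The 12 markers summed to 1408 and 7888 CPM in Control replicates 1 and 2 and to 4457 and 12200 CPM in Trim33-deficient replicates 1 and 2, and none was at 0 in any library. Tgfb1 and Tgfbi shared this order of libraries, from Control replicate 1 over Trim33-deficient replicate 1 and Control replicate 2 to Trim33-deficient replicate 2. Tgfb2 had the same lowest and highest libraries, with the other 2 in the opposite order. Among the markers 5 of 12 had that order (Col1a1, Col3a1, Pdgfra, Pdgfrb and Postn), as did 8.66% of all genes tested. The others did not. Among those, the smooth muscle genes Acta2, Tagln, Cnn1 and Myh11 were higher in Trim33-deficient replicate 1 than in Control replicate 2. Abundant genes weigh most in the sum, such as Col3a1, at 108 to 3478 CPM. All 12 markers had a log2 fold change above 0, where 49.8% of all genes did, and their median was 0.81. At an unadjusted edgeR p under 0.05, 2 of 12 were higher (Thy1 and Cnn1), against 3.06% of all genes. The edgeR test called 0, against 0.014%. With the replicate block 9 of 12 had an unadjusted p under 0.05, all higher, against 5.48% of all genes, and the median was 0.99. Within both pairs 10 of 12 were higher, against 30.3%. The part of these cells in the ligand and Tgfbi values was not tested. Fewer cells of a type and less RNA per cell cannot be told apart in bulk libraries. Pmepa1, Skil, Ltbp3 and Tgfb3 did not share the order, since each was lower in Control replicate 2 than in replicate 1.

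**Figure D4:**
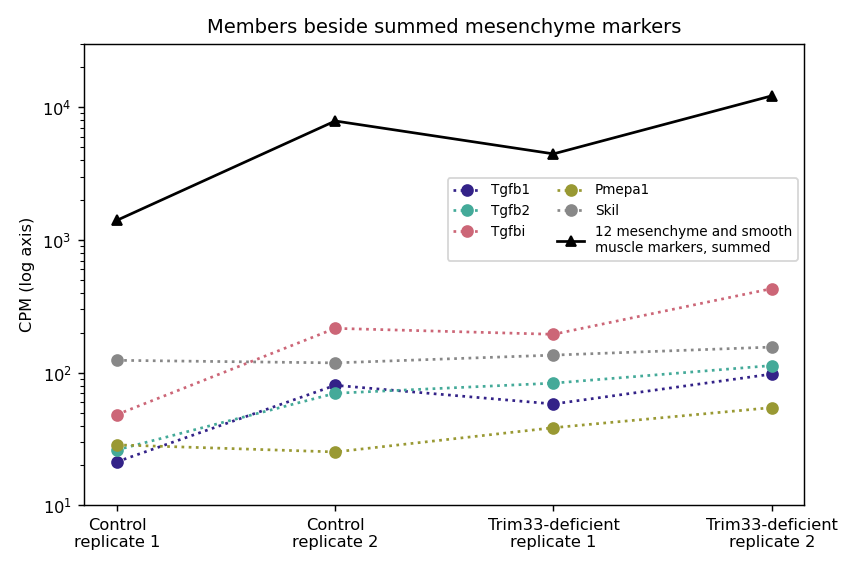
Levels of Tgfb1, Tgfb2, Tgfbi, Pmepa1 and Skil and the summed level of 12 mesenchyme and smooth muscle markers (triangles), in CPM on a log axis, in each library. Lines join the values of one gene. The marker sum goes from 1408 CPM in Control replicate 1 to 7888 CPM in Control replicate 2, as Tgfb1 goes from 21.3 to 80.4 CPM and Tgfbi from 48.4 to 216 CPM.

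Markers of other cell types also varied between the libraries. Visceral endoderm markers summed to 1093 and 1375 CPM in Control and to 408 and 500 CPM in Trim33-deficient libraries, with 10 of 12 below 0 and a median log2 fold change of −3.05. Of these markers 9 of 12 were lower at an unadjusted edgeR p under 0.05, against 4.78% of all genes. The edgeR test called 1 lower (Cubn) and DESeq2 called 8 lower, against 0.014% and 0.829% of all genes in either direction. For 10 the groups did not overlap, with Control higher, against 21.4% of all genes. Neuroectoderm markers summed to 670 and 260 CPM in Control, against 337 and 316 CPM with Trim33 deficiency, and pluripotent markers to 428 and 238 CPM against 217 and 206 CPM, both highest in Control replicate 1. Cardiomyocyte markers summed to 207 and 561 CPM in Control, against 1581 and 419 CPM with Trim33 deficiency, so the groups overlapped. Of these markers 7 of 7 tested had a log2 fold change above 0, against 49.8% of all genes, with a median of 1.45. Endothelial markers summed to 186 and 466 CPM in Control and to 265 and 305 CPM in Trim33-deficient libraries. Blood markers summed to 3.48 and 117.5 CPM in Control, against 37.65 and 177.6 CPM with Trim33 deficiency, and 1 of 6 was at 0 in all libraries. Their sum thus also had the library order of Tgfb1 and Tgfbi, which was not particular to mesenchyme markers. Of the blood markers 4 of 4 tested were above 0, with a median of 0.66. Above 0 were also 2 of 6 endothelial, 0 of 7 neuroectoderm and 1 of 8 pluripotent markers. Whether these shares bear on the 9 genes was not tested.

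The rest of the pathway was read from 6 lists of genes, of which 75 were in the files and 74 were tested. None was called by edgeR, with or without the block, against 0.014% of all genes in either fit. DESeq2 called 1, Trim33, which is the targeted gene itself, against 0.829% of all genes. Trim33 is also among the genes counted as lower in this paragraph. At an unadjusted p under 0.05, 10 of 74 were higher and 2 were lower, and in 26 both Trim33-deficient libraries lay above both Control libraries, against 5 below. These are to be read beside 3.06% and 4.78% of all genes for p and 19.3% and 21.4% for groups that do not overlap. Counts of each list below are read beside the same shares, and beside 49.8% of all genes with a log2 fold change above 0. With the replicate block 26 of 74 were higher at an unadjusted p under 0.05 and 2 lower, against 5.48% and 6.07% of all genes. Of these 26, latency and activation held 11 of its 18 genes and other transcriptional targets 10 of 20. The median log2 fold change of the 74 genes, without the block, was 0.26.

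Genes of latency and activation hold the ligand in the matrix or free it. Of the 18, 15 had a log2 fold change above 0, against 49.8% of all genes, and the median was 0.53. At an unadjusted edgeR p under 0.05, 5 were higher, against 3.06% of all genes, and 0 lower, against 4.78%. The groups did not overlap in 9, all higher, against 19.3%. Bgn, encoding the proteoglycan biglycan, was at 78.6 and 76.6 CPM in Control, against 112 and 112 CPM with Trim33 deficiency, a log2 fold change of 0.53 (SE 0.10, edgeR adjusted p = 0.485). Its libraries were close within each group. Ltbp2, a matrix protein related to Ltbp3, was at 5.80 and 3.91 CPM against 13.0 and 12.6 CPM (log2 fold change 1.39, SE 0.30, edgeR adjusted p = 0.523). The integrin subunit gene Itgav and the ligand activator gene Thbs1 had log2 fold changes of 0.70 (SE 0.17) and 1.09 (SE 0.30), with edgeR adjusted p of 0.544 and 0.552. Neither these nor Bgn and Ltbp2 followed the library order of Tgfb1, since the groups did not overlap for any of the 4.

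Receptor genes had a log2 fold change above 0 in 5 of 7, with a median of 0.24. Tgfbr1, the type I receptor gene, was at 142 and 177 CPM in Control, against 222 and 215 CPM with Trim33 deficiency (log2 fold change 0.45, SE 0.14, edgeR adjusted p = 0.602). Tgfbr2, the type II receptor gene, was at 19.9 and 35.0 CPM against 30.1 and 50.4 CPM, with overlapping groups (log2 fold change 0.56, SE 0.38, edgeR adjusted p = 0.721). Bambi, a decoy receptor gene and feedback target, was at 37.6 CPM in Control replicate 1 and at 116, 127 and 149 CPM in the other 3 libraries. Its log2 fold change of 0.85 (SE 0.53, edgeR adjusted p = 0.708) dropped to 0.25 without Control replicate 1, and passed at 1.88 without Control replicate 2 (adjusted p = 0.0416). The value of Tgfbrap1, a receptor-associated protein gene, was −0.12 (SE 0.22).

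SMADs and their regulators had a log2 fold change above 0 in 8 of 12, with a median of 0.057. Smad2 was at 0.13 (SE 0.11), and Smad3, Smad4 and Smad7 were at −0.15, 0.094 and −0.0015 on the log2 scale, so the feedback inhibitor gene Smad7 had the value nearest 0 in the list. The ubiquitin ligase gene Smurf1 was at 0.49 (SE 0.19, edgeR adjusted p = 0.644) and the SMAD phosphatase gene Ppm1a at 0.22 (SE 0.10, edgeR adjusted p = 0.663). Trim33, in this list, was the 1 gene lower at an unadjusted p under 0.05. Corepressor partners and relatives had a log2 fold change above 0 in 7 of 11, with a median of 0.025. Meis1, a homeobox gene, was at 41.0 and 59.0 CPM against 88.2 and 72.1 CPM (log2 fold change 0.68, SE 0.22, edgeR adjusted p = 0.608). Mecom and Sin3a were at 0.51 and −0.12, and Tgif2, the closest relative of Tgif1 here, at 0.025. Smad3, Smad4, Smad7 and Tgif2 were chosen for their known roles, after their values were seen.

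Other transcriptional targets of TGF-beta had a log2 fold change above 0 in 19 of 20, against 49.8% of all genes, and the median was 0.38. At an unadjusted edgeR p under 0.05, 3 were higher, against 3.06% of all genes, and 0 lower, against 4.78%. Ctgf, a matricellular growth factor gene, was at 83.4 and 95.8 CPM in Control, against 138 and 204 CPM with Trim33 deficiency (log2 fold change 0.93, SE 0.22, edgeR adjusted p = 0.530). Cdkn1a, the p21 cell cycle inhibitor gene, was at 148 and 145 CPM against 184 and 238 CPM (0.53, SE 0.16, edgeR adjusted p = 0.579). Both have other known inducers. Timp1, a metalloproteinase inhibitor gene, and Tsc22d1 were at 0.95 (SE 0.30) and 0.34 (SE 0.13), with edgeR adjusted p of 0.601 and 0.644. The 1 target below 0 was the early response gene Klf10, at −0.26. It was singled out after its value was seen.

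Ligands and antagonists of the Nodal and activin branch, which signal through the same SMADs, had a log2 fold change above 0 in 3 of 6 tested members, with a median of 0.028. Lefty2, a secreted Nodal antagonist and feedback gene, was at 6.80 and 4.98 CPM in Control, against 3.24 and 2.56 CPM with Trim33 deficiency (log2 fold change −1.02, SE 0.36, edgeR adjusted p = 0.627). Nodal was at 10.9 and 12.6 CPM against 15.2 and 18.0 CPM (0.50, SE 0.22, edgeR adjusted p = 0.663). Inhba, which encodes the activin A subunit, had 12 to 59 counts per library and a log2 fold change of 1.24 (SE 0.67), and Lefty1 was at −0.49 (SE 0.38). Antagonist and corepressor genes of the 2 branches had values on both sides of 0, and whether the sign goes with the branch was not tested. Lefty1 and Lefty2 were below 0. Tgif1, at −0.12 (SE 0.12), and Smad7, at −0.0015, were too near 0 to give a sign. Pmepa1, Bambi, Skil and Ski were above 0. None of these passed the edgeR test with all 4 libraries.

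**Figure D5:**
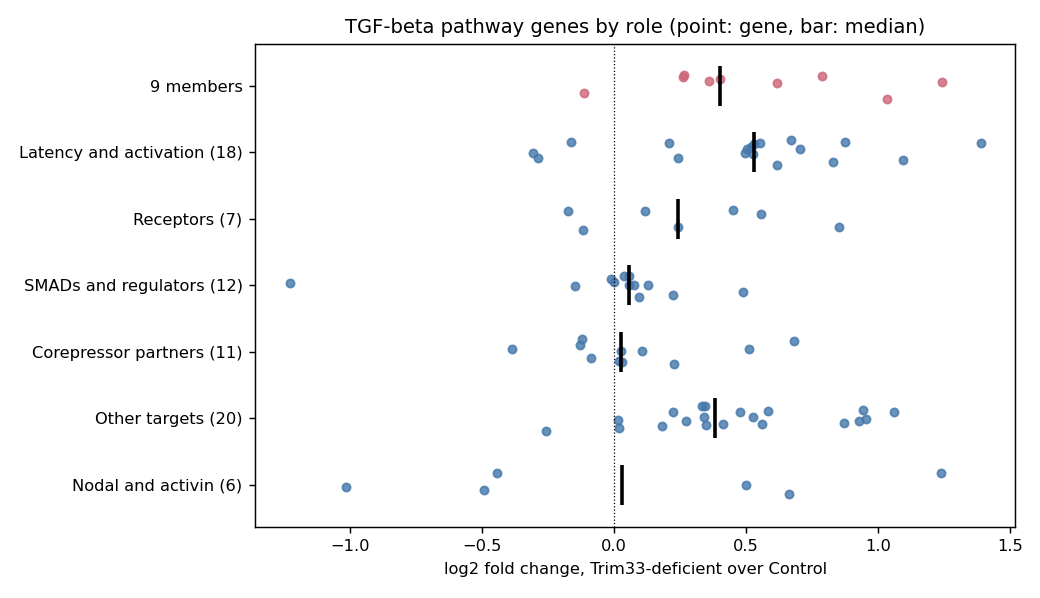
Log2 fold change, Trim33-deficient over Control (x axis), of the 9 genes (red) and of the other tested pathway genes (blue) by role, with the number of genes in brackets and a bar at the median. Medians were 0.40 for the 9 genes, 0.53 for latency and activation, 0.38 for other targets and 0.057 for SMADs and their regulators.

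The genes most like the 3 members with the smallest p were taken by the Euclidean distance between centred log2 CPM profiles over the 4 libraries. For Pmepa1 these were Wdr1 (0.0839), 3110001I22Rik (0.100) and Cage1 (0.108). For Skil they were Kctd20 (0.00877), 4930577N17Rik (0.0178) and Rasa2 (0.0235), and for Ltbp3 Ppp1r11 (0.0355), Tmem19 (0.0410) and Slc4a2 (0.0419). Among the 9 genes themselves, Ltbp3 lay at 0.156 from Tgfb3 and at 0.219 from Skil, whereas Pmepa1 lay at 1.86 from Tgfbi. The profiles were centred but not scaled, so the distance depends on the size of the differences as well as on their direction. Genes that vary little therefore lie close to many others. With 4 libraries many genes share such a profile, and the distances are given as a description.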

How the data were processed

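RNA of 4 mouse embryoid body libraries (2 Control, 2 Trim33-deficient, grouped by title) was sequenced. STAR, HTSeq and DESeq, and the build mm9, are named without versions or settings in the submitters' processing notes. Each deposited file gives unnormalised counts for 24015 gene symbols. The 5 rows that name no gene, up to 56.0% of reads in a file for reads without a feature, were left out. The deposited table of the authors gives an adjusted p-value for 84 genes, and was used to look up the members and Trim33.

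Genes were filtered with filterByExpr (14259 left), scaled by TMM and compared by the two-sided quasi-likelihood test of edgeR 4.0.16 (adjusted over all genes, threshold 0.05) in R 4.3.3. SE is the absolute log2 fold change over the square root of F, and the prior count for log2 CPM was 2. The code was tested on simulated data. Alternatives were DESeq2 1.42.0, RLE and upper-quartile scaling, no low-count filter, the replicate block and each library left out; a group's lone library is then assumed to vary like the other group. The labels speak of pairs. Deviations of same-numbered libraries from their group means had a Pearson coefficient of 0.236 and a Spearman coefficient of 0.207 across genes. With 2 libraries per group, exchanging the numbers in 1 group would only turn the sign of these coefficients. They therefore cannot show that the numbers mark pairs. Chi-square per degree of freedom between replicates was 36.0 and 24.5, so replicates were not 1 library deposited again. Named genes were the 9 members, Trim33, up to 4 genes of smallest p per pathway list and the 3 nearest profiles of 3 members; 1 gene this rule names is not reported here. Smad3, Smad4, Smad7, Tgif2, Klf10, Fbn2 and single cell type markers were named outside the rule, after their values were seen. Members and lists were chosen with earlier results of these data known. Transcript lengths came from GENCODE M21 (GRCm38), and promoter windows from RefSeq (GRCm38.p6).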

Additional observations from a re-analysis of the deposited data

How the results depend on the processing

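Over 9 alternatives, 80 of 81 values of the 9 genes kept their direction and stayed above the adjusted p threshold, the lowest edgeR adjusted p being 0.0525 for Tgfb2 without Control replicate 2. The exception was Tgfb1, whose log2 fold change turned to −0.0523 without Control replicate 1 (adjusted p = 0.987) and was at most 1.87, without Control replicate 2. The cause was not tested. The replicate block changed no call: the same 2 genes were called with it and without it, 0 of them members. The count of all called genes, 2, was 136 with DESeq2 and 14 without the low-count filter, and 0 to 91 as each library was left out, with 0 without either Trim33-deficient library, 10 without Control replicate 1 and 91 without Control replicate 2. The count of other pathway genes called, 0, was 1 with DESeq2 (Trim33) and 0 to 2 over the left-out libraries (Bambi and Fbn2, without Control replicate 2). Upper-quartile scaling moved log2 fold changes by a median of −0.034. With 2 libraries per group, none of the 9 differences was detectable after adjustment over all genes.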
